A study of Mus musculus with 11 samples.

Results

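The Notch pathway was described here through 10 of its genes, the receptors Notch1, Notch2 and Notch3, the ligands Dll1, Jag1 and Jag2, the DNA-binding factor Rbpj and the target genes Hes1, Hes5 and Hey1. They were chosen by name, out of 24417 gene names in the files, and were compared across 4 regions of the adult mouse brain. RNA was sequenced from FACS-sorted astrocytes of Aldh1l1-eGFP mice on the C57BL/6 background at 16 weeks of age, with 3 samples of the brainstem (BS), 2 of the cortex (CX), 3 of the hippocampus (HC) and 3 of the olfactory bulb (OB). No treatment and no other allele distinguished the groups: all carried the same reporter, a BAC transgene in which Aldh1l1 regulatory sequence drives eGFP, so that the cells were selected by the activity of this promoter. The study used mice of both sexes, and the labels do not say whether the replicates came from separate animals, so the p-values measure the spread between these samples, which may be technical. Each normalized value is the number of reads on a gene over the size factor of its sample. The samples held between 2830746 and 14151670 reads on genes, with a median of 5552215, and 3 reads, taken as the detection floor, corresponded to a normalized value between 1.10 and 6.31. Intervals and floors cover counting error only.

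Notch receptors are single-pass membrane proteins that are activated by Delta and Jagged ligands on a neighbouring cell. Binding leads to cleavage of the receptor, and the released intracellular domain enters the nucleus, joins Rbpj and Mastermind-like co-activators, and turns on target genes, of which the Hes and Hey families of bHLH repressors are the best known. In the brain the pathway is known for keeping neural progenitors undifferentiated and for promoting the astrocyte fate, and parenchymal astrocytes of the adult keep expressing its receptors.

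Of the 10 genes, Hes5 and Notch3 differed among the regions. Hes5, a target gene, was 6.63-fold lower in the BS than in the other samples. Notch3 was lowest in the HC and highest in the BS, with region means 2.73-fold apart. The remaining receptors Notch1 and Notch2, Rbpj, and the targets Hes1 and Hey1 had region means no more than 1.60-fold apart, and none of them passed the test. Dll1 had 15 to 30 reads in the OB samples and 9 or fewer in every other sample, but its difference did not pass after correction. The test was limma on log2(value + 1) over the 13872 genes that passed a filter on low reads, with an F test over the 4 region means, and a gene was called at a Benjamini-Hochberg adjusted p under 0.05. All 10 genes passed the filter, Dll1 through its reads in the OB. By this test 2 of the 10 genes were called, against 16.5% of all genes tested.

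The promoters of 3 target genes are shown because these genes, Hes5 and the pathway genes Hey2 and Nrarp described further on, differed among the regions. They are RefSeq windows on GRCm38.p6 from 250 bases before to 50 bases after the start of transcription, printed in the direction of the gene. Both strands were searched for TGGGAA, the core of the sequence that Rbpj is known to bind, and for GTGGGAA, which contains it. The capitals mark GTGGGAA, or TTCCCAC where it lies on the opposite strand. The Hes5 window is chr4:154960673-154960972 on the + strand, the Hey2 window chr10:30842734-30843033 on the - strand and the Nrarp window chr2:25180508-25180807 on the + strand.
Hes5: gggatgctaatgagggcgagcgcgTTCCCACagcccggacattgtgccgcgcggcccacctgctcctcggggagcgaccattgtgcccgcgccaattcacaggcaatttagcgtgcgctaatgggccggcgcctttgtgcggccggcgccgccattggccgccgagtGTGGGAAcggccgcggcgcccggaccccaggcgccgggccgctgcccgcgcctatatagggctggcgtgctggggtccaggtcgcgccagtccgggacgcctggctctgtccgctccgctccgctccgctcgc
Hey2: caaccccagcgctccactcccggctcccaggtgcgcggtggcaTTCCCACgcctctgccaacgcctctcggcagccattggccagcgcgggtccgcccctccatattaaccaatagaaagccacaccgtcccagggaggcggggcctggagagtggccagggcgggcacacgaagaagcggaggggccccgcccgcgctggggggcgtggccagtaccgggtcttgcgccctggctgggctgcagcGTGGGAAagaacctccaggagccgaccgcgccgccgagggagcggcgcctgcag
Nrarp: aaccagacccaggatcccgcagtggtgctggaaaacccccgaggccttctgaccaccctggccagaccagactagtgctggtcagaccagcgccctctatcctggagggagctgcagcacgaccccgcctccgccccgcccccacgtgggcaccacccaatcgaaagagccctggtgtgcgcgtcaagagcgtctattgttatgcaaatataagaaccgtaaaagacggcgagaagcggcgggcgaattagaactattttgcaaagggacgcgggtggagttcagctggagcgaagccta
The Hes5 window held 2 matches to GTGGGAA, with their leftmost bases at positions -226 and -83, where 0 is the first transcribed base. The Hey2 window held 2 as well, at positions -207 and -4, and the Nrarp window held neither sequence. Among all 32851 promoters of the table, 25.6% held TGGGAA and 6.38% held GTGGGAA. RefSeq windows were found for 8 of the 10 genes, all but Hes1 and Hey1, and 3 of their 10 windows held TGGGAA: that of Hes5 and both windows of Rbpj. No window was found for the pathway gene Heyl, which also differed among the regions. A match is a description of the letters and not of a bound site.

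Of the receptors, Notch3 was the one that was called. Notch3 (GRCm38, chromosome 17, 32120820 to 32166852) encodes a receptor best known from the mural cells of blood vessels. Its normalized values were 154, 137 and 106 for OB, 99.3, 43.8 and 48.1 for HC, 126 and 92.0 for CX, and 142, 198 and 181 for BS. The lowest values were those of HC replicates 2 and 3, and HC replicate 1 lay among the CX values. The region means were 174 ± 28.9 (SD, n = 3) for BS, 132 ± 24.6 (SD, n = 3) for OB, 109 ± 23.8 (SD, n = 2) for CX and 63.7 ± 30.9 (SD, n = 3) for HC. The F test called the difference at an adjusted p of 0.0197 (limma). In this order no pair of neighbouring regions passed the test, whereas the HC was lower than the BS by a log2 difference of -1.52 (SE 0.32, adjusted p = 0.0120, limma) and the OB was higher than the HC by 1.12 (SE 0.32, adjusted p = 0.0499, limma). The call over the regions was lost without HC replicate 2 (adjusted p = 0.0857), HC replicate 3 (0.0723) or BS replicate 3 (0.0565), and in limma without a mean-variance trend (0.0618). In bulk samples of this kind, fewer cells with a transcript and less of it per cell cannot be told apart.

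Notch1 and Notch2, the receptors with the highest levels per length, varied less. Notch1 (chromosome 2, 26457903 to 26516663) had normalized values of 691, 889 and 921 for OB, 761, 919 and 1045 for HC, 1079 and 1007 for CX, and 464, 896 and 686 for BS. The regions overlapped, with BS replicate 1 lowest and CX replicate 1 highest. Against the other regions the BS had a log2 fold change of -0.46 (SE 0.19), with an unadjusted p of 0.0323 and an adjusted p of 0.186 (limma). The adjusted p over the 4 regions was 0.242, and it passed at 0.0455 without BS replicate 2. Notch2 (chromosome 3, 98013527 to 98150361) lay between 568 and 963 in all 11 samples, with a median of 833. Its region means were within 1.22-fold of each other (adjusted p = 0.600, limma), and the lowest value and the widest spread within a region came from the BS.

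Among the ligands, Dll1 showed the widest separation and Jag1 had the highest level. Dll1 (chromosome 17, 15367354 to 15376872) encodes a Delta-like ligand known from progenitors and their neuronal progeny. Its normalized values were 17.4, 23.7 and 8.08 for OB, 5.62, 2.74 and 1.47 for HC, 2.51 and 1.53 for CX, and 2.10, 6.01 and 0 for BS. Every OB sample lay above every other sample. These values rest on few reads, 61 in the 3 OB samples together and 24 in the 8 others, and the 0 in BS replicate 3 allows a value of up to 6.31. Pooled over samples, the ratio was 5.53 (95% interval 3.40 to 9.27 from the counts alone). The log2 fold change of the OB against the rest was 2.31 (SE 0.70), with an unadjusted p of 0.00544 and an adjusted p of 0.0854 (limma). Because Dll1 was tested only through its OB reads, and failed the filter without OB replicate 1 or 2, its values in the OB are a description and no test of them is support. Markers of neuroblasts and progenitors moved with Dll1: the summed value of this list of 8 genes, of which 7 or 8 were detected (over 3 reads) in an OB sample and 5 to 8 elsewhere, was 628 to 889 in the OB and 187 to 517 in the other samples. Dlx1 and Dlx2, which mark the interneuron lineage, were at 0 in all BS samples. The part of these cells in the Dll1 values was not tested.

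Neither Jagged ligand passed the test. Jag1 (chromosome 2, 137081456 to 137116644) had values of 143, 272 and 119 for OB, 159, 69.4 and 156 for HC, 128 and 250 for CX, and 63.1, 150 and 164 for BS. In every region the samples were further apart than the highest and the lowest region mean were, and the adjusted p over the regions was 0.647 (limma). Jag2 (chromosome 12, 112907819 to 112929776) ranged from 3.77 in OB replicate 3 to 53.1 in HC replicate 1, with a median of 10.9. Its mean was lowest in the OB, at 6.72 ± 3.69 (SD, n = 3), against 22.0 ± 16.9 (SD, n = 8) in the other samples. The log2 fold change of -1.34 (SE 0.65) had an adjusted p of 0.309 (limma), and the OB values overlapped those of the other regions.

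**Figure D1:**
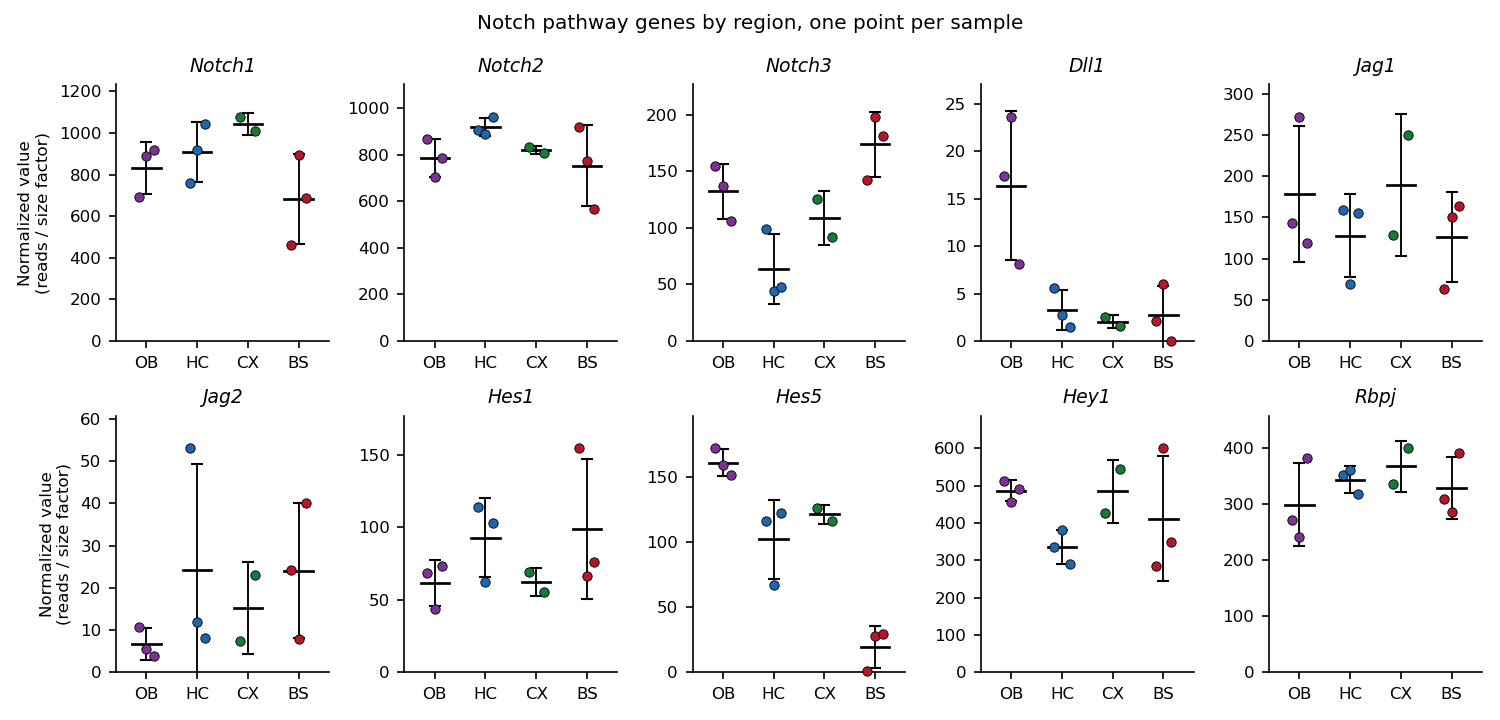
Normalized value (reads divided by the size factor, linear axes from 0, a scale of its own in each panel) of the 10 genes in each sample, by region. Points are samples, the horizontal bar is the region mean and the error bar its SD, cut at 0 for Dll1 and Jag2, with n = 3 in the OB, HC and BS and n = 2 in the CX. The BS points of Hes5 lie at or below 29.5 and those of the other regions at or above 67.6.

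Rbpj, the factor through which the cleaved receptors act on DNA, had region means within 1.23-fold of each other. Rbpj (chromosome 5, 53466152 to 53657362) lay between 242 and 400 in the 11 samples, with region means from 299 ± 74.3 (SD, n = 3) in the OB to 368 ± 45.8 (SD, n = 2) in the CX. The adjusted p over the regions was 0.724 (limma), the highest among the 10 genes.

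Hes5 was the target gene that differed. Hes5 (chromosome 4, 154960923 to 154962371) encodes a bHLH repressor that is a well-known direct target of Notch signalling in neural progenitors. Its normalized values were 173, 159 and 152 for OB, 117, 67.6 and 123 for HC, 127 and 117 for CX, and 1.05, 28.0 and 29.5 for BS. Every BS sample lay below every other sample, and every OB sample lay above every other sample. The BS mean was 19.5 ± 16.0 (SD, n = 3), against 129 ± 32.7 (SD, n = 8) in the other regions. On the log2 scale Hes5 fell by 3.37 in the BS (SE 0.64, adjusted p = 0.00730, limma), where 5.41% of all genes were called and Hes5 was the 1 of the 10 genes that was. The BS values rest on 29 reads, against 1416 in the 8 other samples, and the pooled values were 8.61-fold apart (95% interval 5.97 to 12.9 from the counts alone).

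BS replicate 1 held 1 read of Hes5, and without this sample the log2 fold change was -2.08 (adjusted p = 0.00414, limma). The call in the BS held in all 9 other settings of the test and without each of the 11 samples. Hes5 was lower in the BS than in each other region, by a log2 difference of 3.73 to the OB (adjusted p = 0.00294), 3.33 to the CX (0.0173) and 3.04 to the HC (0.0277, limma throughout). The order of the means was OB, CX, HC and BS, and of the neighbours in this order only the HC and the BS passed the test. Although its OB values did not overlap the rest, the OB against all other samples had a log2 fold change of 1.76 with an SE of 1.00 (adjusted p = 0.40, limma), a comparison in which the BS samples belonged to the others. The F test over the regions gave an adjusted p of 0.00757, and 0.0659 without a mean-variance trend.

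The targets Hes1 and Hey1 were not called. Hes1 (chromosome 16, 30064384 to 30067796), a bHLH repressor that many signals besides Notch control, had values of 68.4, 43.4 and 73.3 for OB, 114, 62.1 and 103 for HC, 69.1 and 55.2 for CX, and 155, 66.1 and 75.8 for BS. BS replicate 1, the sample with the least Hes5, had the most Hes1, and the regions overlapped (adjusted p = 0.514, limma). Hey1 (chromosome 3, 8663359 to 8667256), a bHLH repressor of the Hey family, had values of 513, 457 and 492 for OB, 335, 382 and 290 for HC, 426 and 544 for CX, and 284, 601 and 349 for BS. The OB and CX samples all lay above the HC samples, while the BS samples spanned the range of the other regions. The adjusted p of Hey1 over the regions was 0.322, and 0.0403 without BS replicate 2 (limma).

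Each region was also set against all samples of the other regions pooled, and these 4 comparisons share their samples. In the OB limma called 0 of the 10 genes against 4.58% of all genes, with 1 of the 10 and 2435 of all genes at an unadjusted p under 0.05. That gene was Dll1, whose test has the limit given above. DESeq2 called the same 1 gene, against 8.95% of the genes that it gave an adjusted p, and edgeR called 0, against 4.40% of all genes. In the HC it called 0 of 10 and none of the 13872 genes (0%), with 1 of the 10 and 789 of all genes at an unadjusted p under 0.05, and both DESeq2 and edgeR called 0 of the 10 (0.679% and 0% of all genes). That gene was Notch3, at a log2 fold change of -1.20 (SE 0.30, adjusted p = 0.444). In the CX limma, DESeq2 and edgeR each called 0 of 10, with 0 at an unadjusted p under 0.05 in each. Of all genes, limma and edgeR each called 0.0144% and DESeq2 0.964%, and 1373 had an unadjusted p under 0.05 in limma. In the BS limma called 1 of 10, Hes5, against 5.41% of all genes. There 3 of the 10 and 2952 of all genes had an unadjusted p under 0.05. Besides Hes5 these were Notch1, given above, and Notch3, at a log2 fold change of 0.89 (SE 0.36, unadjusted p = 0.0285, adjusted p = 0.175, limma). By the thresholds of the study (fold change above 1.5, p below 0.01 without adjustment, and more than 5 as the normalized value of 2 or more replicates of any region), Dll1 passed in the OB (8.04% of all genes), Notch3 for HC (1.28%), no gene of the 10 for CX (2.77%) and Hes5 for BS (9.03%). The median log2 fold change of the 10 genes was 0.16 for OB, 0.13 for HC, 0.11 for CX and -0.15 for BS, against 0.02, 0.02, -0.03 and 0.02 over all genes tested.

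**Figure D2:**
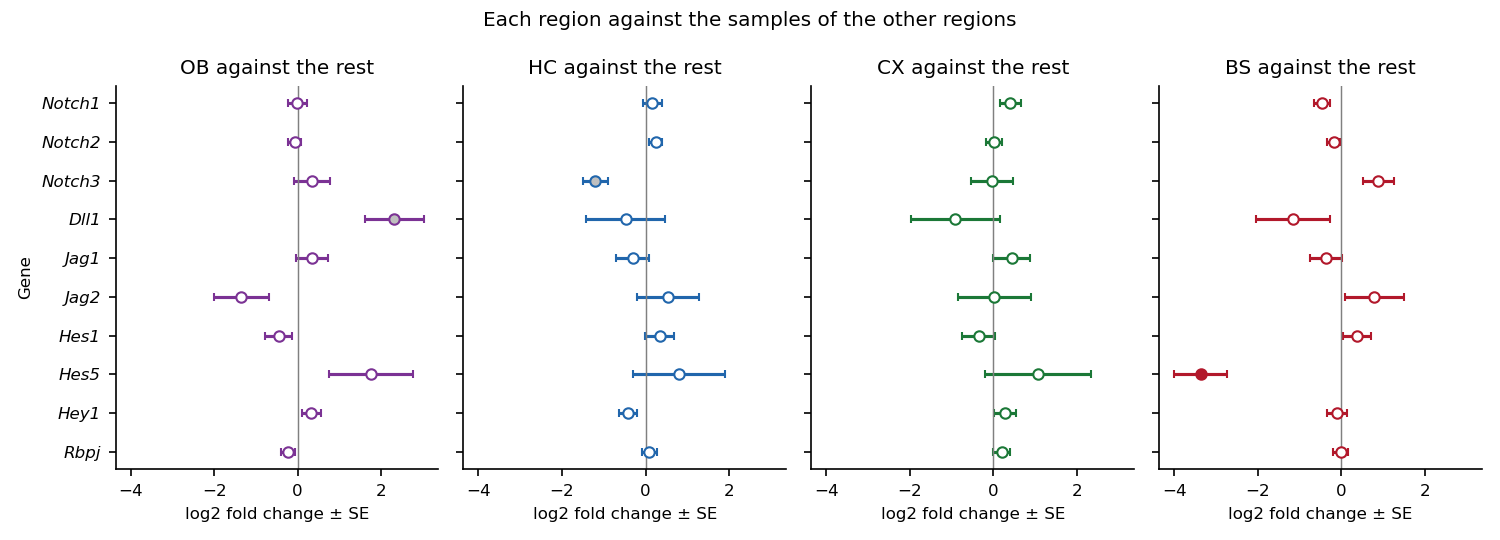
Log2 fold change of the 10 genes in each region against all samples of the other regions, on log2(value + 1), with its standard error. Filled points passed an adjusted p under 0.05, grey points passed only the thresholds modelled on the study and open points passed neither. Hes5 for BS at -3.37 is filled, and Dll1 for OB at 2.31 and Notch3 for HC at -1.20 are grey.

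Between pairs of regions 5 differences were called among the 10 genes, those of Hes5 and Notch3 given above. They were 1 for OB and HC (7.12% of all genes), 1 for OB and BS (14.9%), 2 for HC and BS (4.64%) and 1 for CX and BS (10.9%). Neither OB and CX (4.91%) nor HC and CX (1.23%) had a call in limma, each with 1 of the 10 genes at an unadjusted p under 0.05. Of all genes, 2256 for OB and CX and 1726 for HC and CX were under this cut.

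Per kilobase of exon sequence, the mean normalized value over the 4 regions was highest for Hey1, at 132. It was 76.0 for Notch2, 74.3 for Hes5, 60.9 for Notch1 and 38.7 for Hes1. Jag1 and Rbpj followed at 26.6 and 26.3 and Notch3 at 14.8, while Jag2, at 2.53, and Dll1, at 1.44, were lowest. With the longest transcript as the length, Hey1 stayed first and Notch3, Jag2 and Dll1 stayed last, but the genes between them changed places, with Notch1 at 91.4 and Notch2 at 78.0. These levels describe the RNA of the sorted cells together.

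Within each family the shares of the summed value per kilobase show which member carried the signal. Of the receptors, Notch4 included, Notch1 and Notch2 together formed most in every region, and Notch3 held 15.2% ± 2.32 (SD, n = 3) for BS, 10.8% ± 2.08 (SD, n = 3) for OB, 8.09% ± 1.39 (SD, n = 2) for CX and 4.92% ± 2.48 (SD, n = 3) for HC. The lowest BS share of Notch3, 12.9%, lay above the highest share in any other region, 12.3%. Of the ligands Dll1, Dll4, Jag1 and Jag2, Jag1 held between 50.4% and 91.7% in every sample. Dll1 held 9.40% ± 1.68 (SD, n = 3) of the ligands in the OB and at most 4.31% in any other sample. Of Hes1, Hes5, Hey1, Hey2 and Heyl, Hes5 held 25.7% ± 2.22 (SD, n = 3) for OB, 29.5% ± 6.23 (SD, n = 3) for HC, 29.9% ± 4.10 (SD, n = 2) for CX and 4.68% ± 3.87 (SD, n = 3) for BS. Heyl held 22.8% ± 11.1 (SD, n = 3) in the BS and Hey2 20.7% ± 2.05 (SD, n = 3) in the OB, the regions where each had its highest share. Shares within a family are tied to each other and were not tested.

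**Figure D3:**
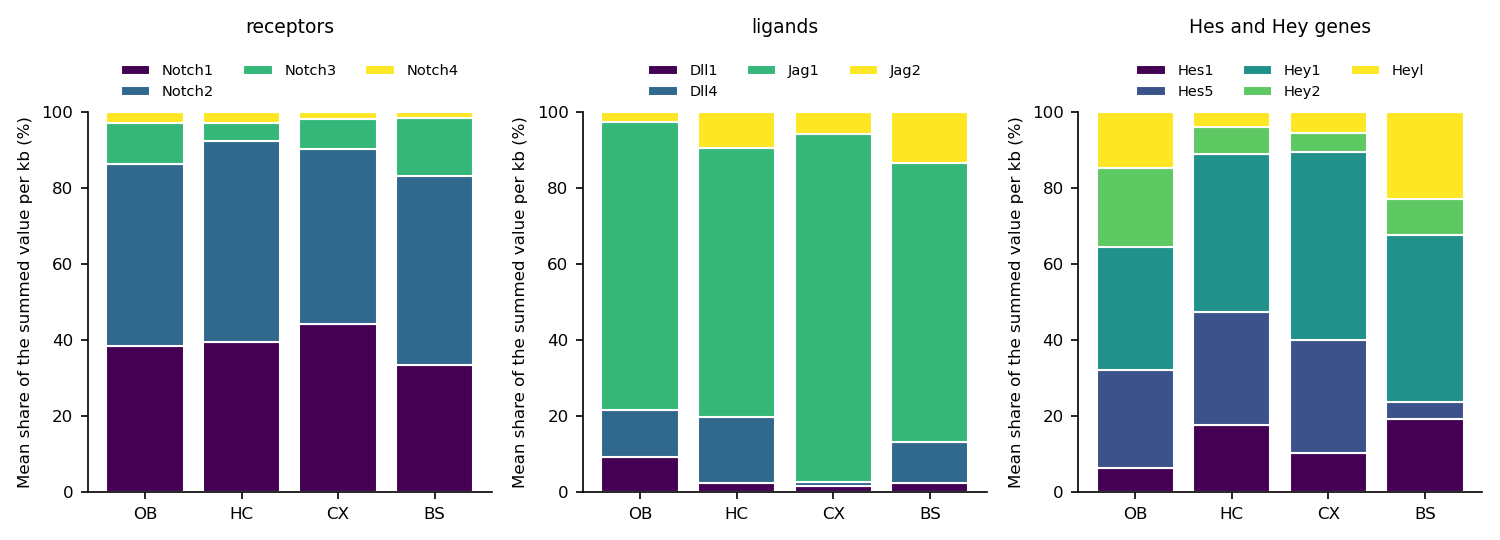
Mean share (%) of each gene in the summed normalized value per kilobase of exon, for 4 receptors, 4 ligands and 5 Hes and Hey genes, in each region (n = 3 in the OB, HC and BS and n = 2 in the CX; bars run from 0 to 100%). Jag1 fills most of the ligand bars, Notch1 and Notch2 most of the receptor bars, and the Hes5 part shrinks to 4.68% in the BS.

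The other genes of the pathway were taken from a list of 62, of which 56 passed the filter on low reads. The F test called 13 of the 56, against 16.5% of all genes. The called genes were 3 of the 4 tested Hes, Hey and feedback genes (Hey2, Heyl and Nrarp), 2 of 3 other ligands (Dlk1 and Dner), 2 of 4 ubiquitin ligases that act on ligands (Neurl1a and Neurl1b), 1 of 8 genes of receptor trafficking (Dtx4), 1 of 10 of receptor cleavage (Aph1a), 2 of 8 co-activators (Maml2 and Kat2b) and 2 of 13 co-repressors (Ncor1 and Tle4). None of the 5 genes of receptor glycosylation was called by limma, nor was the receptor Notch4. Against the rest, limma called 3 of the 56 in the OB (4.58% of all genes), all of them higher (2.57%) and 0 lower (2.01%), and 4 in the BS (5.41%), of which 3 were lower (3.41%) and 1 was higher (278 of the 13872 genes). In the HC and the CX it called 0 of the 56, with 3 and 6 at an unadjusted p under 0.05. Of all 13872 genes, 789 and 1373 were under this cut. For these regions edgeR also called 0 (0% and 0.0144% of all genes). DESeq2 called 3 of the 56 for HC (Aph1a, Dtx4 and Heyl), against 0.679% of all genes, and 1 for CX, against 0.964%.

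The 3 called target and feedback genes had their highest region means in the OB. Hey2, a bHLH repressor of the Hey family, had values of 556, 362 and 410 in the OB and between 65.9 and 142 in the 8 other samples. The OB did not overlap the rest, at 443 ± 101 (SD, n = 3) against 92.7 ± 29.3 (SD, n = 8), and Hey2 was higher by a log2 fold change of 2.28 (SE 0.26, adjusted p = 0.000264, limma). Heyl, the third Hey gene, had values of 457, 293 and 304 for OB, 51.8, 31.1 and 68.2 for HC, 59.0 and 115 for CX, and 127, 415 and 476 for BS. It was high in the OB and the BS and low in the HC and CX, with log2 differences of 2.82 between OB and HC (adjusted p = 0.000866) and -2.59 between HC and BS (adjusted p = 0.00243, limma). Nrarp, a feedback inhibitor that Notch induces, had values of 388, 478 and 439 for OB, 203, 247 and 258 for HC, 369 and 391 for CX, and 73.6, 236 and 215 for BS. It was higher in the OB than in the BS by 1.47 (adjusted p = 0.00693) and in the CX than in the BS by 1.29 (adjusted p = 0.0373, limma). Its call over the regions (adjusted p = 0.0196) was lost without OB replicate 2 (0.0648) or OB replicate 3 (0.0553) and without a trend (0.110). In the BS, Hes5 was thus lower than in each other region, Heyl was higher than in the HC and the CX (log2 difference of -1.82 between CX and BS, adjusted p = 0.0287, limma), and Hes1 and Hey1 were not called.

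Of the ubiquitin ligases that act on ligands and of the other ligands, Neurl1b and Dlk1 set the BS apart and Dner the OB. Neurl1b, an E3 ligase that promotes the uptake of Notch ligands, had values of 43.4, 41.1 and 25.9 for OB, 106, 57.5 and 51.7 for HC, 76.6 and 69.0 for CX, and 1.05, 0 and 0 for BS. The 3 BS samples together held 1 read and the 8 others 620, a ratio of 0.00914 (95% interval 0.000231 to 0.0511 from the counts alone), and the adjusted p for the BS was 1.305e-05 (limma). In the 2 BS samples at 0, 3 reads would correspond to 6.01 and 6.31. Its relative Neurl1a had values of 28.2, 7.89 and 23.2 for OB, 104, 45.7 and 40.0 for HC, 74.1 and 88.9 for CX, and 10.5, 12.02 and 23.2 for BS. The OB and the BS were both low and overlapped, and the CX was higher than the BS by a log2 difference of 2.42 (adjusted p = 0.0221, limma). The call of Neurl1a over the regions (adjusted p = 0.0194) was lost without CX replicate 1 (0.0621) or CX replicate 2 (0.0737). Dlk1, a membrane protein related to Delta that lacks the domain that activates receptors, had values of 82.0, 112 and 58.9 in the BS and at most 22.8 elsewhere, at a log2 fold change of 3.09 (SE 0.58, adjusted p = 0.00703, limma). Dner, a Delta-related transmembrane protein with EGF repeats, had values of 2120, 2244 and 2567 for OB, 1618 and 1423 for CX, 490, 614 and 706 for HC, and 431, 1212 and 335 for BS. The OB lay above all other samples, at a log2 fold change of 1.65 (SE 0.42, adjusted p = 0.0389, limma).

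Dtx4, an E3 ligase of the Deltex family, which acts on Notch receptors, had values of 678, 463 and 544 for OB, 101, 172 and 134 for HC, 197 and 202 for CX, and 207, 445 and 370 for BS. The OB was above and the HC below all other samples, and the OB had a log2 fold change of 1.43 (SE 0.37, adjusted p = 0.0387, limma). The calls of Dner and Dtx4 in the OB were near the threshold: that of Dner was lost without any one of the OB or HC samples or without BS replicate 1 (adjusted p between 0.0505 and 0.179), and that of Dtx4 without any one of the OB samples or without HC replicate 2 or 3 (0.0591 to 0.191). Both were also lost without a mean-variance trend (0.0940 for Dner and 0.0899 for Dtx4), and that of Dner with edgeR (0.0560) and without the filter (0.0510). In the F test over the regions both stayed called without each of the 11 samples.

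The nuclear cofactors moved less. The co-activator Maml2 was 353, 601 and 427 in the BS and between 626 and 921 elsewhere, and the co-repressor Tle4 was 741, 517 and 543 in the BS and between 787 and 1150 elsewhere. The BS lay below all other samples in both, by log2 fold changes of -0.74 (SE 0.17, adjusted p = 0.0233, limma) and -0.70 (SE 0.17, adjusted p = 0.0264). Those calls were lost without BS replicate 3 (0.111 for Maml2 and 0.132 for Tle4), and also without BS replicate 1 for Maml2 (0.156) and BS replicate 2 for Tle4 (0.0824), and both without a trend (0.0649 and 0.0713). The acetyltransferase gene Kat2b was higher in the BS than in the OB by 1.06 (adjusted p = 0.00236, limma). Ncor1, a co-repressor, was higher in the CX than in the BS by 0.72 (adjusted p = 0.0150, limma), and Aph1a, a subunit of the gamma-secretase that cleaves the receptor, was higher in the OB than in the HC by 1.15 (adjusted p = 0.0188, limma). Over the regions, Aph1a, Maml2 and Ncor1 had adjusted p-values of 0.0404, 0.0409 and 0.0420, close to the threshold. When the 11 samples were left out in turn, Aph1a remained called in 3 fits (without HC replicate 3, BS replicate 1 or BS replicate 2), Maml2 in 4 (without HC replicate 1, HC replicate 3, CX replicate 2 or BS replicate 2) and Ncor1 in 2 (without HC replicate 1 or BS replicate 2). In the others their adjusted p reached 0.146, 0.180 and 0.157. Tle4, at 0.0261 over the regions, lost its call without HC replicate 2, either CX sample, BS replicate 2 or BS replicate 3, at 0.0529 to 0.119.

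**Figure D4:**
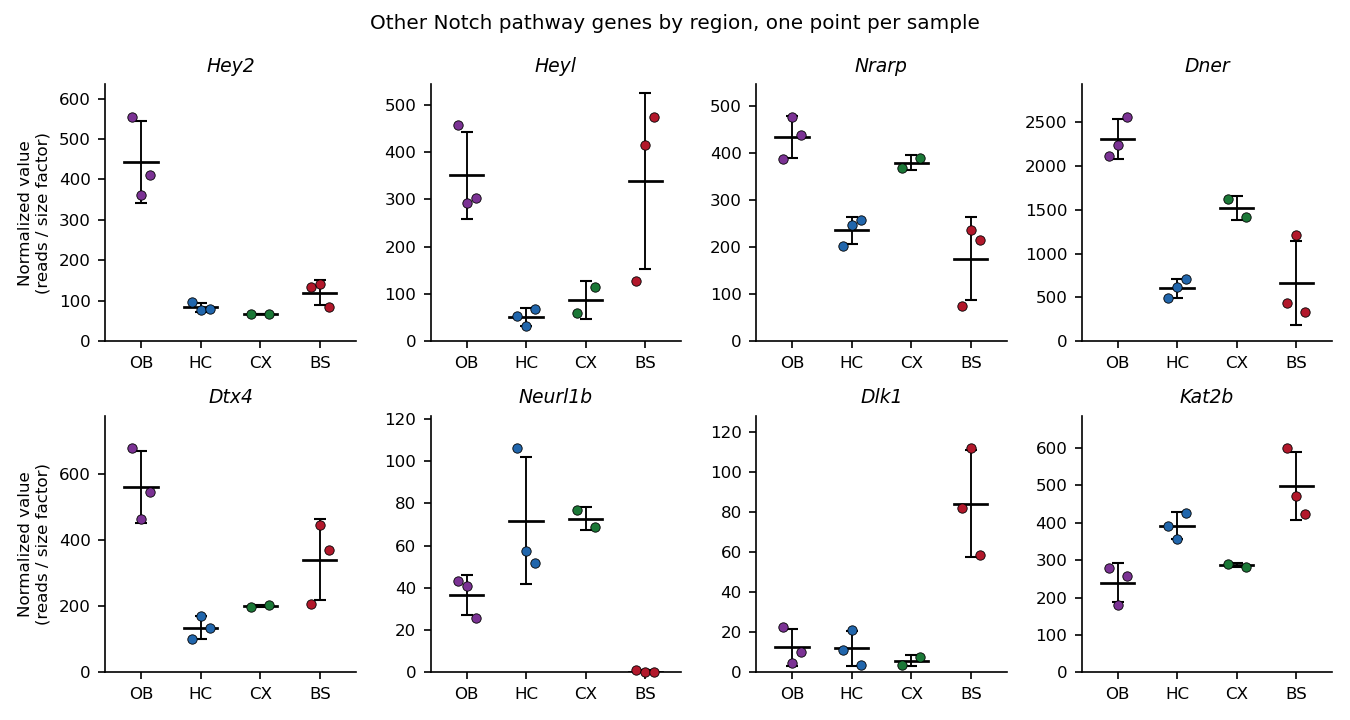
Normalized value (linear axes from 0, a scale of its own in each panel) of 8 other pathway genes in each sample, by region, with the mean and SD of each region (n = 3 in the OB, HC and BS and n = 2 in the CX). Hey2 and Dner were highest in the OB, Dlk1 was highest in the BS, and the 3 BS samples of Neurl1b lie at or near 0.

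Markers of the sorted cell type and of other cell types were read beside these results. All 8 astrocyte markers, Aldh1l1 and Slc1a2 among them, were detected in every sample, with a summed value between 95158 in BS replicate 1 and 633069 in CX replicate 1. Slc1a2 made up most of this sum, at 61764 to 208927 in the BS and 472464 to 541892 in the CX. Single markers differed in direction: Slc1a3 was lowest in the BS (1953 to 6315), whereas Aqp4 and S100b reached their highest values there (20767 and 6281). Aldh1l1 was 623 to 1256 in the BS and 542 to 916 in the HC. BS replicate 1 also had the highest sum of the 8 choroid plexus markers, 240125, of which Ttr supplied 221911. This sum was 51202 to 240125 for BS, 70362 to 143026 for HC, 1743 to 4872 for CX and 201 to 326 for OB, where Folr1 and Slc4a5 were at 0 in every sample. All 8 of these markers were detected in the HC and BS samples, 7 in the CX and 5 or 6 in the OB. The HC samples had choroid plexus sums within the BS range and Hes5 values of 67.6 to 123, against 1.05 to 29.5 in the BS. Divided by Aldh1l1 in the same sample, Hes5 was 0.00169 to 0.0449 in the BS and 0.0811 to 0.215 in the other regions. The groups did not overlap on this scale, which rests on 1 of the 8 astrocyte markers. Slc1a3, at 1953 to 6315 in the BS, was 31576 to 33551 in the CX. Whether the groups stay apart on the scale of Slc1a3 or of another marker was not tested. The ratio of Notch3 ranged from 0.158 to 0.276 for BS, from 0.110 to 0.158 for OB, from 0.0882 to 0.0954 for CX and from 0.0525 to 0.183 for HC. On this scale HC replicate 1 lay above every OB and CX sample and above the lowest BS sample, and the low HC ratios were those of replicates 2 and 3. For Nrarp the ratio was 0.118 to 0.327 in the BS and 0.281 to 0.375 in the CX, which overlapped, and 0.398 to 0.507 in the OB, which lay above both. Oligodendrocyte markers, 8 genes, summed to 52260 to 89909 in the BS and at most 39771 elsewhere, and the part of either cell type in the BS values of Hes5, Neurl1b and Dlk1 was not tested.

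Mural and endothelial markers were read beside Notch3. The 10 mural markers, of which 7 to 10 were detected in a sample, summed to 827 to 1417 for BS, 687 to 1408 for OB, 853 to 1268 for CX and 497 to 2858 for HC, and the regions overlapped. The 10 endothelial markers were all detected in every sample and their sums overlapped as well, from 1325 to 1819 in the BS and from 410 to 2822 in the HC. HC replicate 1, the HC sample with the most Notch3, had the highest sum of both lists. Microglial markers overlapped in all regions, at 1236 to 4272, and so did the 9 neuronal markers, at 1344 to 3805. Olfactory ensheathing markers, 6 genes, were highest in the OB, at 18248 to 24555 with all 6 detected, against 4038 to 16994 elsewhere with 3 to 5 detected and Mybpc1 at 0 in the HC and CX, and their part in the OB values of Dll1, Hey2, Dner and Dtx4 was not tested.

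**Figure D5:**
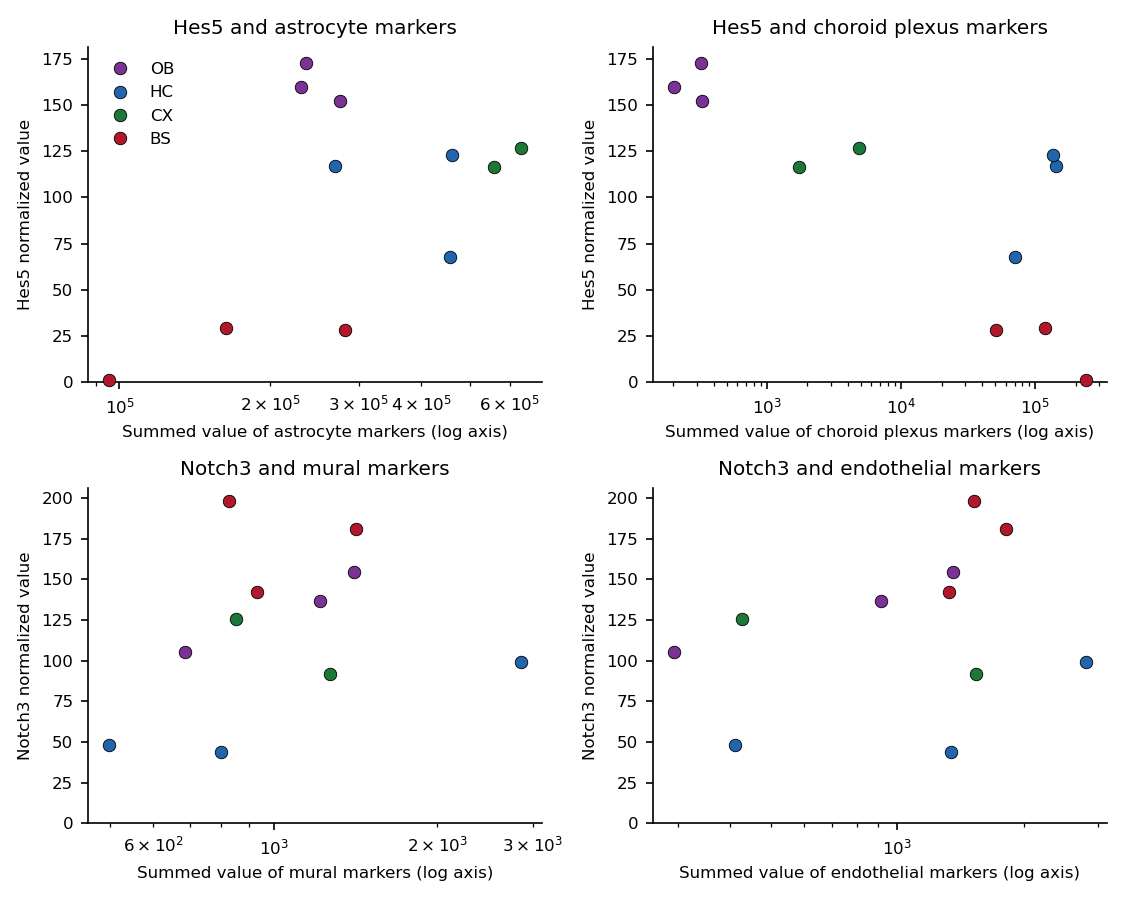
Normalized value of Hes5 (top) and Notch3 (bottom, linear axes) against the summed normalized value of marker genes (log axes) in the 11 samples, coloured by region. The BS samples have the lowest Hes5 at choroid plexus sums that overlap those of the HC. BS replicate 1 is at the lowest astrocyte and highest choroid plexus sum, and Slc1a2 makes up most of the astrocyte sum. Notch3 in the HC is low at mural sums that overlap those of the other regions.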

How the data were processed

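RNA of FACS-sorted Aldh1l1-eGFP astrocytes was measured in 11 samples, grouped by the brain region in their labels. The authors built total RNA libraries with rRNA depletion (NuGEN Trio), mapped reads to mm10 with STAR 2.5.0a, counted them on UCSC transcripts and normalized with DESeq2 1.20.0. The deposited unit is thus a normalized signal, counts divided by one size factor per sample. Dividing by the smallest step of a sample gave whole reads for 100% of the values (tolerance 0.001). Of 24421 entries per sample, 4 rows with repeated names were left out.

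limma 3.58.1 (R 4.3.3) was fitted to log2(value + 1) with a mean-variance trend, without covariates, over the 13872 genes that passed edgeR's filterByExpr (minimum count 10). An F test compared the 4 regions, and further two-sided tests compared each region with all other samples and the 6 pairs of regions. Adjusted p-values follow Benjamini and Hochberg over all genes tested. Intervals of read ratios are exact conditional binomial intervals. The tests were checked on simulated data with a single fixed fold change, and smaller changes were not simulated. Alternatives were edgeR 4.0.16 and DESeq2 1.42.0 on the recovered reads, TMM factors, other pseudocounts, no filter, no trend and a mean for each region. Further ones were the thresholds modelled on the study, the replicate number as a block, and fits without each sample in turn. Lengths and coordinates are from GENCODE (GRCm38) and promoters from RefSeq (GRCm38.p6). Python 3.11.15 with numpy 2.4.6, pandas 2.3.3 and matplotlib 3.10.9 served for tables and plots.

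The genes named are the 10 given, the pathway genes called by the F test, and the 3 genes most correlated with each called gene of the 10. The genes, the pathway list and the marker lists were chosen with earlier results of these data known. Immunostaining, ChIP and motif enrichment of the study were not analysed here.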

Additional observations from a re-analysis of the deposited data

How the results depend on the processing

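The count of genes of the 10 that differed among the regions was 2, and 2 in edgeR (14.9% of all genes) and DESeq2 (22.1%). It was 0 in limma without a mean-variance trend, where 3 had an unadjusted p under 0.05, and between 1 and 4 when single samples were left out. Of the other pathway genes 13 differed, 8 without a trend and 8 to 13 with a sample left out (8 without CX replicate 1). The share of all genes called was not counted without a trend, with the replicate number as a block or with a sample left out. Whether calls over all genes moved alike in these settings was thus not tested. Differences between pairs of regions numbered 5, then 3 without a trend, and 2 (without HC replicate 2 or 3) to 8 (without BS replicate 2) with a sample left out. In the OB against the rest the count of 0 became 1, Dll1, with DESeq2, with log2(value + 5), without a trend and by the thresholds modelled on the study. Dll1 entered the test only through its OB reads, so these calls are no support for its OB level. In the HC it went from 0 to 1, Notch3, with a mean for each region and by the thresholds modelled on the study. In the BS it went from 1 to 2 with a mean for each region. The cause was not tested. Only log2 fold changes can reverse, and F tests and counts have no sign. None of those followed reversed, all of genes that were called or passed the modelled thresholds in the main fit. Among single-gene results outside the left-out fits, 291 stayed on the same side of the threshold, 24 lost and 13 gained the call. With a sample left out these numbers were 368, 52 and 5. Over the regions Aph1a, Maml2 and Ncor1 were lost with edgeR (0.0594 to 0.0688), Maml2 and Ncor1 without the filter (0.0583 and 0.0569), and Tle4 and Kat2b without a trend (0.128 and 0.0513). Dll1 was not tested without OB replicate 1 or 2, where it failed the filter. Whether the replicate numbers pair the samples could not be settled. Correlations of the deviations were over 0.1 in 3 of 15 same-numbered pairs (range -0.16 to 0.25). On the other hand, 7 of 11 samples correlated best with their own number. With the replicate number as a block, 2 of the 10 genes and 11 other pathway genes differed, 6 differences between pairs were called and Hes5 had an adjusted p of 0.00603. The block lowered the calls among the other pathway genes from 3 to 1 in the OB, where Dner (0.0529) and Dtx4 (0.0732) were lost, and from 4 to 3 in the BS, where Tle4 was lost (0.0509). Over the regions it ended the calls of Aph1a, Maml2 and Ncor1 (0.0503 to 0.0517). The depth limits Dll1, Jag2 and the BS values of Hes5 and Neurl1b, which rest on few reads.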

Other observations

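Dll4, a ligand best known from endothelial cells, was looked at after its values were seen. It had 2 reads in both CX samples together (values of 1.26 and 1.53), and values of 3.15 to 68.7 in the other samples. It was not called in the CX (log2 fold change of -2.66, SE 0.88, adjusted p = 0.347, limma) or over the regions (adjusted p = 0.180). The highest value was that of HC replicate 1, the sample with the highest endothelial marker sum, 2822, and the part of endothelial cells in it was not tested.

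The genes whose log2(value + 1) followed Hes5 most closely over the 11 samples were Slc39a1 (Pearson r = 0.981), Celf2 (0.960) and Pkia (0.951), and those that followed Notch3 were Rgag4 (0.915), Rnd1 (0.895) and Rbms3 (0.893). These are the highest of 13871 correlations each, among samples that share their regions, and are a description. Among the 10 genes themselves, the highest correlation was that of Notch1 with Hes5 (0.760) and the lowest that of Hes1 with Hey1 (-0.743), again over 11 samples.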
